A study of Mus musculus with 11 samples.

Results

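The early complement and lectin pathway genes were 9 genes, *Mbl1*, *Mbl2*, *Masp1*, *Masp2*, *C4b*, *C2*, *C3*, *Cfb* and *Cfi*, chosen by symbol for their place in these pathways. They were 9 of the 54232 Ensembl gene identifiers with a count in each library, and all 9 were among the 13303 genes that passed the filter on low counts. RNA-seq was done on hepatocytes isolated from adult male C57BL/6 mice in a study of how loss of the transcription factor XBP1 in hepatocytes alters the response to diet. Control *Xbp1* fl/fl mice carried the loxP-flanked gene without a deletion, and *Xbp1* LKO mice had a liver-specific deletion of *Xbp1* driven by albumin promoter-Cre. Both genotypes were fed chow or the HFS diet (high fat and sugar), a Western diet given with fructose and glucose in the drinking water, for up to 6 weeks. There were 3 libraries of chow-fed *Xbp1* fl/fl, 2 of chow-fed *Xbp1* LKO, 3 of HFS-fed *Xbp1* fl/fl and 3 of HFS-fed *Xbp1* LKO hepatocytes, with 1 mouse in each chow library and a pool of 2 mice in each HFS library.

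Complement is a cascade of plasma proteins, made largely by hepatocytes, that tags microbes and damaged cells for removal. In the lectin pathway, the mannose-binding lectins MBL-A (*Mbl1*) and MBL-C (*Mbl2*) recognize sugars on a surface and carry the serine proteases MASP-1 (*Masp1*) and MASP-2 (*Masp2*). MASP-2 cleaves C4 (*C4b*) and C2 (*C2*) to form an enzyme that cleaves C3 (*C3*), the point where all complement pathways meet. Factor B (*Cfb*) amplifies C3 cleavage through the alternative pathway, and factor I (*Cfi*) stops it by cutting C3b and C4b. These proteins are secreted through the endoplasmic reticulum, the compartment whose protein folding response XBP1 serves.

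The promoter sequence upstream of the start site was given for 4 of the 9 genes (RefSeq, GRCm38.p6), and the 250 bases are shown 5′ to 3′ on the strand of the gene because *Masp2* and *Mbl2* carry genotype differences described below and *C3* and *Mbl1* are their partners in the pathway. The window of *C3* is chr17:57228137-57228386 (minus strand), *Masp2* has chr4:148602294-148602543 (plus), *Mbl1* has chr14:41151206-41151455 (plus) and *Mbl2* has chr19:30232678-30232927 (plus). Capitals mark letters of 4 motifs that were searched on both strands, and, in *Mbl1* and *Mbl2*, the longest run of bases that both promoters share.
C3: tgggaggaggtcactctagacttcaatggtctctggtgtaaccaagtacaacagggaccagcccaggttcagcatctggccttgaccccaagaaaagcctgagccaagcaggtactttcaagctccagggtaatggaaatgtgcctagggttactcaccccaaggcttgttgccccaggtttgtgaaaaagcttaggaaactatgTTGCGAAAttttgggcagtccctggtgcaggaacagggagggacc
Masp2: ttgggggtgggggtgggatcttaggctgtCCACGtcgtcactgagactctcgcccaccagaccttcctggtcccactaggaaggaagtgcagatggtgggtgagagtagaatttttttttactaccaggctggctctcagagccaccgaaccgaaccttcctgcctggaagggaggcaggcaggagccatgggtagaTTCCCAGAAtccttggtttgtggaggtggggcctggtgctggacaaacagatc
Mbl1: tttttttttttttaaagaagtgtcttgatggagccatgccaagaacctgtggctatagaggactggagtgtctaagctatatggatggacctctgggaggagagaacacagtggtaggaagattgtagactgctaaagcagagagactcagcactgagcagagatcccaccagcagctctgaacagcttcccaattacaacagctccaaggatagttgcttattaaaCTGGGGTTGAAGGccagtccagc
Mbl2: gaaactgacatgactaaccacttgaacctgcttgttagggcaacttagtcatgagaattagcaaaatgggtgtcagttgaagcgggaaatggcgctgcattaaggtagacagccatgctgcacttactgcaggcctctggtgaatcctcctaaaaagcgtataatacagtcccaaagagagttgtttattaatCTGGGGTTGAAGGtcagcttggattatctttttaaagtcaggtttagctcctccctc
The motifs were CCACG, part of the ER stress element, TGACGT, the core of the unfolded protein response element, TTGCNNAA, a C/EBP site, and TTCNNNGAA, a STAT site. The reverse strand letters of CCACG can overlap TGACGT, and no window shown held both. Of 32851 promoter windows of the same length, 28.3% held CCACG, 6.47% TGACGT, 9.56% TTGCNNAA and 7.02% TTCNNNGAA. The *C3* window held the C/EBP letters TTGCGAAA at base -45 from the start. The *Masp2* window held CCACG at -221 and the STAT letters TTCCCAGAA at -53, and the windows of *Mbl1* and *Mbl2* held none of the 4 motifs. The shared run CTGGGGTTGAAGG (13 bases) began at -23 in *Mbl1* and -57 in *Mbl2*, and 3 of the 32851 windows held it, the other being that of *Slc25a53*. These letters are a description of the windows and show neither binding nor use of a site. The promoters of *C2*, *C4b*, *Cfb*, *Cfi* and *Masp1* were not used here.

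How much of each gene the counts could see differed between the genes. Genes whose every exon base lay in exons of other genes had 0 counts in all libraries in 737 of 743 cases on the same strand and in 448 of 453 cases on the opposite strand, against 24067 of 42389 genes (56.8%) that shared no exon base. Reads in shared exons, whichever the strand, were thus hardly counted. *Cfb* kept 579 of 2825 exon bases outside other genes, because 79.5% of them also belong to the readthrough gene *Gm20547*, which had 0 counts in every library. *C2* kept 2055 of 3872 bases, with 42.8% in *Gm20547* and 4.16% under the opposite-strand gene *Zbtb12*. *Masp2* kept 1490 of 3307 bases, with 54.9% under *Tardbp* on the other strand. *C4b* shared no exon base, but 34.6% of the 50-base stretches of its transcripts also occur in its paralog *C4a*. Levels per kb below therefore use the unshared bases, and the values of *Cfb*, *C2*, *Masp2* and *C4b* carry this uncertainty in level. How reads that match both *C4a* and *C4b* were assigned was not tested.

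**Figure D1:**
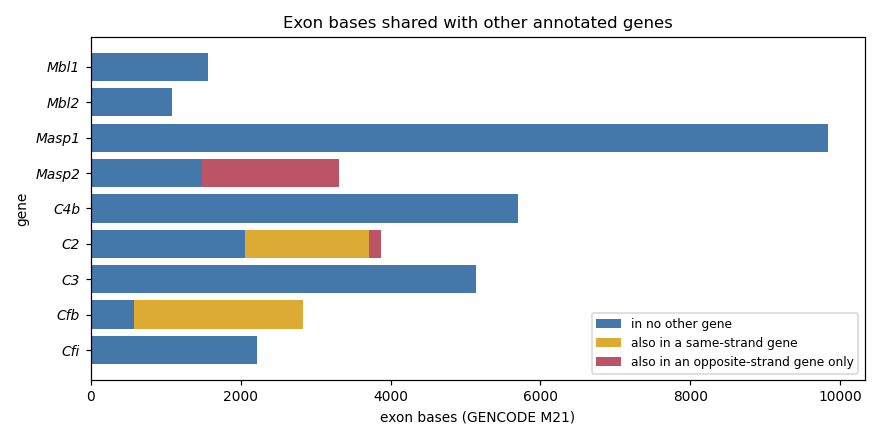
Exon bases of each gene (x axis, bases of GENCODE M21) that lie in no other annotated gene (blue), also in a gene on the same strand (yellow) or in an opposite-strand gene only (red). *Cfb* has 579 blue bases and *Masp2* 1490, while 6 of the genes are blue throughout.

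The libraries held 19191032 to 23888401 counts, of which the 9 genes took 0.674% to 1.36%. *Xbp1* itself was lower in *Xbp1* LKO than in *Xbp1* fl/fl hepatocytes on chow, with a log2 fold change of -0.87 (SE 0.18, adjusted p = 0.0183), and on the HFS diet, with -1.26 (SE 0.16, adjusted p = 0.00254). These are counts of the whole gene and do not separate the deleted exon. The hepatocyte marker *Alb* was abundant in every library (14021 to 119367 CPM, counts scaled to a common library size). The 14 hepatocyte markers sought, 13 of which were tested, summed to 156900 to 189170 CPM in chow-fed *Xbp1* fl/fl, 55204 to 91960 in chow-fed *Xbp1* LKO, 141100 to 157820 in HFS-fed *Xbp1* fl/fl and 74348 to 105320 in HFS-fed *Xbp1* LKO libraries, so the sums were lower in *Xbp1* LKO libraries on both diets. Of the 13 tested, 11 had a lower fitted value in *Xbp1* LKO on chow (2 called, *Alb* and *Serpina1a*) and 12 on HFS (1 called, *Apoa1*), with median log2 fold changes of -0.66 and -0.61. Markers of other liver cells were low, with sums of 15.1 to 63.9, 15.9 to 24.8, 30.5 to 41.1 and 40.3 to 72.5 CPM over 10 macrophage genes in the same order of groups. Over 10 endothelial genes the sums were 45.7 to 108, 27.1 to 35.8, 88.1 to 149.8 and 71.9 to 112 CPM, and over 10 stellate genes 18.2 to 61.5, 13.5 to 15.8, 32.1 to 57.6 and 36.8 to 76.6 CPM. Chow-fed *Xbp1* LKO libraries were lowest of the groups in the endothelial and stellate sums. Chow-fed *Xbp1* fl/fl replicate 1 stood apart from the other two of its group, with 63.9 against 15.1 and 15.8 CPM in the macrophage sum and 61.5 against 18.2 and 23.6 CPM in the stellate sum. Cholangiocyte genes summed to 8.09 to 12.4, 5.11 to 5.59, 3.62 to 12.8 and 10.8 to 16.5 CPM, with *Krt19* and *Krt7* near 0, and neutrophil and lymphocyte genes to at most 3.796 CPM. The part of these marker differences in the results below was not tested, and fewer cells of a type and less RNA per cell cannot be told apart in bulk libraries.

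By level per kb in chow-fed *Xbp1* fl/fl hepatocytes, *C3* stood first with 1699 ± 632 CPM per kb (SD, n = 3). *Cfi* (432 ± 8.36) and *Mbl2* (424 ± 57.3) came next with ranges that overlapped, followed by *C4b* (247 ± 89.6), *Mbl1* (178 ± 12.2) and *Masp2* (153 ± 18.7). The ranges of *C4b* and *Mbl1*, and those of *Mbl1* and *Masp2*, overlapped as well. *C2* (27.1 ± 3.51), *Cfb* (19.8 ± 3.28) and *Masp1* (19.5 ± 4.13) were the low genes, and the ranges of *Cfb* and *Masp1* overlapped. *Masp1* thus lay far below *Masp2* per kb, over exons that include all its annotated isoforms, and *Cfb* far below *C3*. In *Xbp1* LKO hepatocytes *Mbl2* stood above *Cfi* on both diets, with no overlap. The ranges were 251 to 258 against 231 to 236 CPM per kb on chow. On HFS they were 286 to 383 against 222 to 284, so the nearest values were close.

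On chow, the 9 genes were all lower in *Xbp1* LKO than in *Xbp1* fl/fl hepatocytes by fitted value, although *Mbl1* and *Masp1* turned higher when libraries were scaled by their totals, and 3 of them, *Cfi*, *Mbl2* and *Masp2*, passed the test. The quasi-likelihood test of edgeR, adjusted by Benjamini-Hochberg over the 13303 genes, called 3.02% of all genes lower at an adjusted p under 0.05. The median log2 fold change was -0.50 over the 9 genes, against 0.0024 over all genes tested. In CPM scaled by TMM, both *Xbp1* LKO libraries lay below all 3 *Xbp1* fl/fl libraries in 4 of the 9 genes, *C2*, *Cfi*, *Masp2* and *Mbl2*. They did so in 15.9% of all genes. Relative to library totals, the genotypes overlapped on chow in *C2* and *Masp2*. On the HFS diet 8 of the 9 were lower by fitted value and 1, *Masp2*, passed, where 2.16% of all genes were called lower. The median was -0.43 over the 9 genes and 0.0083 over all genes. In 7 of the 9 the groups did not overlap in CPM scaled by TMM, *Mbl1* and *Mbl2* being the exceptions. The share of all genes lower in *Xbp1* LKO without overlap was 12.5%. Relative to library totals, *C2*, *Cfb*, *Cfi* and *Masp1* overlapped on HFS as well, and *C3*, *C4b* and *Masp2* did not. The share of all genes by library totals was not computed. With library totals, 1 of the 9 was called on chow (*Cfi*) and 1 on HFS (*Masp2*). The p-values set each difference against a spread between libraries that was estimated over all 11. That estimate mixes chow libraries of 1 mouse with HFS pools of 2 mice. With only the groups compared, the genes called went from 632 to 233 on chow and from 543 to 809 on HFS. The part of pooling in this was not tested.

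**Figure D2:**
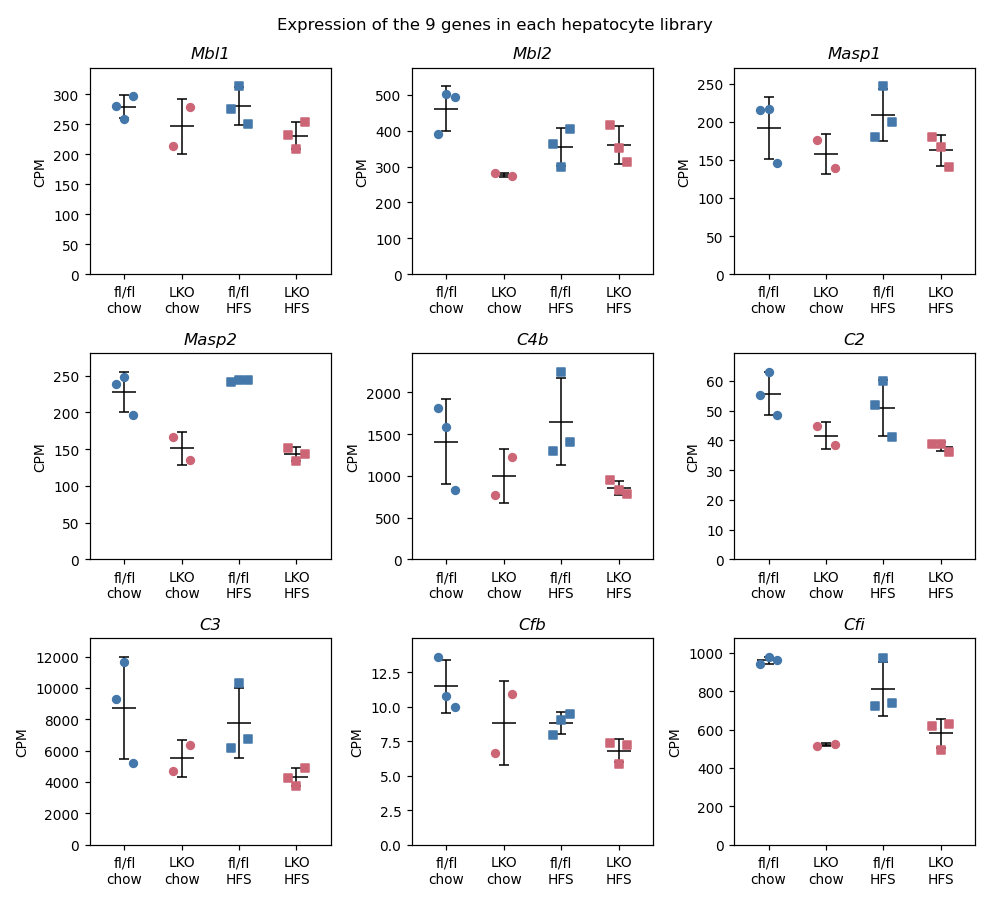
CPM (y axis, linear from 0, scaled by TMM) of each gene in the 11 libraries by genotype and diet. Points are libraries, bars the mean ± SD (n = 3, and n = 2 for chow-fed *Xbp1* LKO). *Masp2* separates the genotypes on both diets, *Mbl2* and *Cfi* lie apart on chow, and *C3* and *C4b* scatter widely among *Xbp1* fl/fl libraries.

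Among the recognition molecules, *Mbl1* (ENSMUSG00000037780, chr14:41151458-41159601 of GRCm38, plus strand) was the steadiest. It had 280.0, 259.6 and 298 CPM in chow-fed *Xbp1* fl/fl and 214 and 279 CPM in chow-fed *Xbp1* LKO libraries. On the HFS diet *Xbp1* fl/fl hepatocytes had 276, 313 and 250.4 CPM and *Xbp1* LKO hepatocytes 231, 208 and 254 CPM. The genotypes overlapped on both diets, and the log2 fold changes of -0.18 (SE 0.16, adjusted p = 0.587) on chow and -0.28 (SE 0.14, adjusted p = 0.347) on HFS did not pass the test. The 95% interval on the HFS diet ran from -0.58 to 0.029.

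*Mbl2* (ENSMUSG00000024863, chr19:30232942-30239687, plus strand) encodes the second mannose-binding lectin. On chow, *Xbp1* fl/fl hepatocytes had 389.6, 502 and 493 CPM and *Xbp1* LKO hepatocytes 281 and 273 CPM, so both deleted libraries were below all controls. With HFS feeding, the values were 362, 299 and 404 CPM in *Xbp1* fl/fl and 417, 352 and 312 CPM in *Xbp1* LKO hepatocytes, and here the genotypes overlapped. The log2 fold change was -0.74 (SE 0.18, adjusted p = 0.0403) on chow, where *Mbl2* fell by 39.97%, and 0.020 (SE 0.16, adjusted p = 0.974) on HFS. The chow call was lost when any of 4 libraries was left out in turn, with adjusted p = 0.109 without *Xbp1* fl/fl replicate 2, 0.0772 without *Xbp1* fl/fl replicate 3, 0.101 without *Xbp1* LKO replicate 1 and 0.254 without *Xbp1* LKO replicate 2. It was also lost with library totals (-0.41, adjusted p = 0.0904) and with only the chow groups fitted (adjusted p = 0.124). The genotype effect differed between the diets by 0.76 on the log2 scale (SE 0.24, unadjusted p = 0.0084, adjusted p = 0.687 by edgeR), a difference that failed the correction. *Mbl2* was the only one of the 9 with an unadjusted p under 0.05 in that test, as were 816 of all 13303 genes. After adjustment edgeR called 0% of all genes.

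The ratio of *Mbl2* to *Mbl1* per kb within a library needs no scaling between libraries. It was 2.01, 2.79 and 2.38 in chow-fed *Xbp1* fl/fl, 1.89 and 1.41 in chow-fed *Xbp1* LKO, 1.89, 1.38 and 2.33 in HFS-fed *Xbp1* fl/fl and 2.595, 2.43 and 1.77 in HFS-fed *Xbp1* LKO libraries. *Mbl2* exceeded *Mbl1* in all 11 libraries, and the chow-fed *Xbp1* LKO ratios lay below the chow-fed *Xbp1* fl/fl ratios. On HFS the ratios of the genotypes overlapped.

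*Masp1* (ENSMUSG00000022887, chr16:23449417-23520815, minus strand), the first protease carried by the lectins, had 215, 216 and 145 CPM in chow-fed *Xbp1* fl/fl and 176 and 139 CPM in chow-fed *Xbp1* LKO libraries. On HFS it had 179.6, 246 and 199.9 CPM in *Xbp1* fl/fl and 179.6, 167 and 141 CPM in *Xbp1* LKO libraries, where the nearest values of the groups were almost equal. Its log2 fold changes of -0.29 (SE 0.21, adjusted p = 0.497) and -0.36 (SE 0.18, adjusted p = 0.346) did not pass. Relative to library totals, HFS-fed *Xbp1* LKO replicate 1 (4408 of 23423149 counts) exceeded HFS-fed *Xbp1* fl/fl replicate 1 (3771 of 22405363).

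*Masp2* (ENSMUSG00000028979, chr4:148602554-148615499, plus strand), the protease that cleaves C4 and C2, fell on both diets. With chow feeding, the values were 238, 249 and 196 CPM in *Xbp1* fl/fl and 167 and 135 CPM in *Xbp1* LKO hepatocytes. HFS feeding gave 241, 244 and 245 CPM in *Xbp1* fl/fl and 152, 134 and 143 CPM in *Xbp1* LKO hepatocytes. In these values, scaled by TMM, all 5 *Xbp1* LKO libraries were below all 6 *Xbp1* fl/fl libraries. Relative to library totals, chow-fed *Xbp1* LKO replicate 1 (3914 of 21572701 counts) lay just above chow-fed *Xbp1* fl/fl replicate 3 (3939 of 21917294). The log2 fold change was -0.59 (SE 0.14, adjusted p = 0.0364) on chow, a fall by 33.7%, and -0.76 (SE 0.13, adjusted p = 0.00757) on HFS, where it fell by 41.2%. The HFS call held without each of the 6 HFS libraries and under every other setting tried. The chow call was lost without *Xbp1* fl/fl replicate 1 (adjusted p = 0.0851), *Xbp1* fl/fl replicate 2 (0.103) or *Xbp1* LKO replicate 2 (0.326). It was also lost with library totals (-0.27, adjusted p = 0.135) and with only the chow groups fitted (adjusted p = 0.191).

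Within a library, the *Masp2* to *Masp1* ratio per kb was 7.31, 7.59 and 8.91 in chow-fed *Xbp1* fl/fl and 6.26 and 6.38 in chow-fed *Xbp1* LKO hepatocytes. It was 8.87, 6.53 and 8.08 in HFS-fed *Xbp1* fl/fl and 5.59, 5.297 and 6.73 in HFS-fed *Xbp1* LKO hepatocytes. The genotypes did not overlap on chow and overlapped on HFS, where *Xbp1* LKO replicate 3 exceeded *Xbp1* fl/fl replicate 2.

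**Figure D3:**
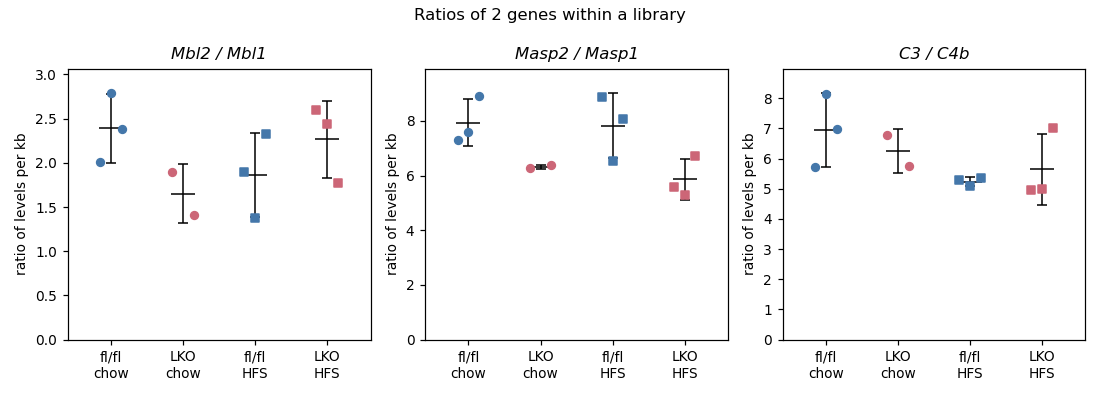
Ratios of CPM per kb of 2 genes within each library (y axis, from 0) for *Mbl2* to *Mbl1*, *Masp2* to *Masp1* and *C3* to *C4b*. Points are libraries and bars the mean ± SD of each group. Chow-fed *Xbp1* LKO libraries are below chow-fed *Xbp1* fl/fl libraries in the first and second panels and inside their range in the third.

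Of the substrates, *C4b* (ENSMUSG00000073418, chr17:34728380-34743882, minus strand) is the C4 gene of the mouse that feeds the classical and lectin pathways. It had 1807, 1583 and 833 CPM in chow-fed *Xbp1* fl/fl and 765 and 1225 CPM in chow-fed *Xbp1* LKO libraries, which overlapped. On the HFS diet *Xbp1* fl/fl hepatocytes had 1296, 2247 and 1402 CPM and *Xbp1* LKO hepatocytes 948, 833 and 778 CPM, with no overlap. The log2 fold change of -0.50 (SE 0.34, adjusted p = 0.465) on chow and of -0.95 (SE 0.30, adjusted p = 0.109) on HFS did not pass edgeR's test. DESeq2, run as an alternative, called the HFS difference (-0.95, adjusted p = 0.0169), as did edgeR on the HFS groups alone (adjusted p = 0.0404).

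*C2* (ENSMUSG00000024371, chr17:34862604-34898265, minus strand), the second substrate of MASP-2, had 55.3, 63.1 and 48.7 CPM in chow-fed *Xbp1* fl/fl and 44.8 and 38.3 CPM in chow-fed *Xbp1* LKO libraries. With HFS feeding, the values were 51.7, 59.8 and 41.2 CPM in *Xbp1* fl/fl and 38.7, 38.7 and 36.2 CPM in *Xbp1* LKO hepatocytes. In CPM scaled by TMM the *Xbp1* LKO libraries were below the *Xbp1* fl/fl libraries on each diet. Relative to library totals the genotypes overlapped. On chow, *Xbp1* LKO replicate 1 (1049 of 21572701 counts) then exceeded *Xbp1* fl/fl replicate 3 (978 of 21917294). On HFS, *Xbp1* LKO replicate 2 (1040 of 23888401) exceeded *Xbp1* fl/fl replicate 3 (841 of 22573249). The fitted differences were alike, -0.42 (SE 0.16, adjusted p = 0.166) and -0.43 (SE 0.14, adjusted p = 0.128). Neither passed the test.

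*C3* (ENSMUSG00000024164, chr17:57203970-57228136, minus strand), the central component, was the most abundant of the 9 and one of the least even between replicates. It had 9319.6, 11655 and 5236 CPM in chow-fed *Xbp1* fl/fl and 4679 and 6355 CPM in chow-fed *Xbp1* LKO libraries. On HFS it had 6184, 10309 and 6772 CPM in *Xbp1* fl/fl and 4239.6, 3753 and 4917 CPM in *Xbp1* LKO libraries. *Xbp1* fl/fl replicate 3 on chow lay below *Xbp1* LKO replicate 2, so the genotypes overlapped on chow and not on HFS. The log2 fold changes of -0.66 (SE 0.33, adjusted p = 0.302) and -0.85 (SE 0.29, adjusted p = 0.141) did not pass edgeR's test, and DESeq2 called the HFS difference (-0.85, adjusted p = 0.0293).

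The nearest pair of the 9 by profile was *Masp1* and *C2*, at a root mean square of 0.193, and the nearest gene to *Masp2* was *C2* (0.205), to *Cfi* it was *Masp2* (0.218) and to *Mbl1* it was *C2* (0.228). For *C3* and *C4b*, the profiles over the 11 libraries, each centred on its own mean log2 CPM, differed by a root mean square of 0.232, and each was the nearest of the 9 to the other. Their SDs within groups on the log2 scale, 0.413 for *C3* and 0.440 for *C4b*, were at percentiles 86.1 and 88.0 of 11130 genes with a mean of at least 1 CPM. That of *Masp2* was 0.137, at percentile 25.1, and the median gene had 0.198. The ratio of *C3* to *C4b* per kb was 5.71, 8.15 and 6.96 in chow-fed *Xbp1* fl/fl, 6.77 and 5.74 in chow-fed *Xbp1* LKO, 5.29, 5.08 and 5.35 in HFS-fed *Xbp1* fl/fl and 4.95, 4.99 and 7.001 in HFS-fed *Xbp1* LKO libraries, and the genotypes overlapped on each diet.

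*Cfb* (ENSMUSG00000090231, chr17:34856374-34862518, minus strand) had the lowest counts, from few counted bases. Chow feeding gave 13.6, 10.8 and 10.01 CPM in *Xbp1* fl/fl and 6.66 and 10.97 CPM in *Xbp1* LKO hepatocytes, with overlap. HFS feeding gave 7.95, 9.06 and 9.45 CPM in *Xbp1* fl/fl and 7.37, 5.84 and 7.21 CPM in *Xbp1* LKO hepatocytes, without overlap. The log2 fold changes of -0.38 (SE 0.22, adjusted p = 0.387) and -0.37 (SE 0.20, adjusted p = 0.377) did not pass. Relative to library totals the genotypes overlapped on HFS, where *Xbp1* LKO replicate 3 (188 of 23232834 counts) exceeded *Xbp1* fl/fl replicate 1 (167 of 22405363).

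*Cfi* (ENSMUSG00000058952, chr3:129835884-129875332, plus strand), the protease that inactivates C3b and C4b, showed the largest fall of the 9 on chow. On chow, *Xbp1* fl/fl hepatocytes had 940.2, 977 and 963 CPM and *Xbp1* LKO hepatocytes 514 and 525 CPM, with tight replicates and no overlap. The log2 fold change was -0.89 (SE 0.17, adjusted p = 0.0147), and *Cfi* fell by 45.9%. On HFS it had 723, 975 and 741 CPM in *Xbp1* fl/fl and 618, 492 and 631 CPM in *Xbp1* LKO hepatocytes, which did not overlap, with -0.49 (SE 0.15, adjusted p = 0.100) that passed DESeq2 (adjusted p = 0.0127) and not edgeR. Relative to library totals the HFS groups overlapped, as *Xbp1* LKO replicate 3 (16447 of 23232834 counts) exceeded *Xbp1* fl/fl replicate 1 (15174 of 22405363). The chow call was lost without *Xbp1* LKO replicate 1 (adjusted p = 0.0506) or *Xbp1* LKO replicate 2 (0.110), when the group had 1 library whose spread was assumed to match that of the others. It was also lost with all 5 chow libraries when only the chow groups were fitted (adjusted p = 0.0604), and held with library totals at -0.56 (adjusted p = 0.0348). The difference between the diets, 0.40 (SE 0.22, adjusted p = 0.829), did not pass.

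**Figure D4:**
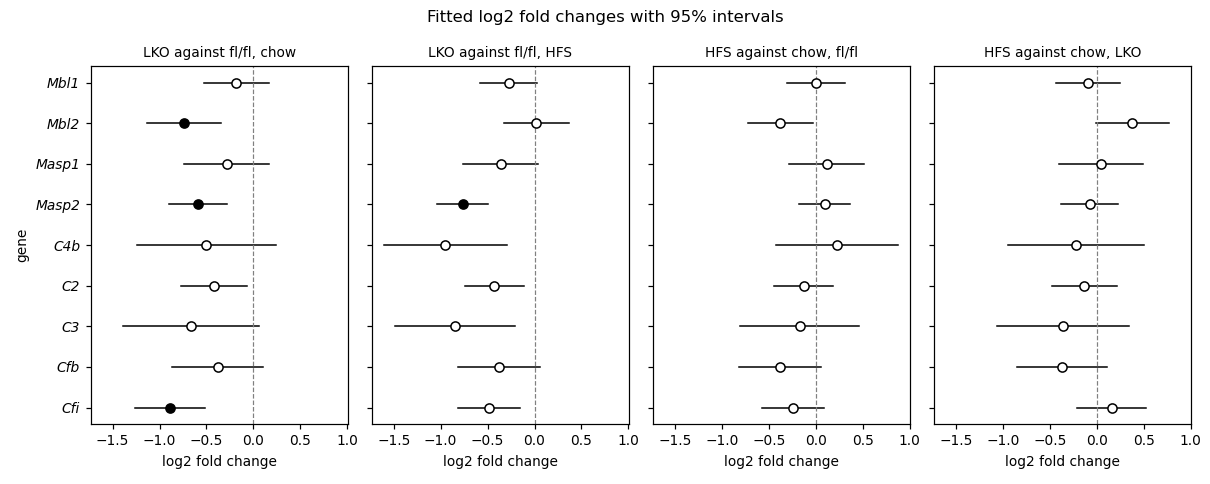
Fitted log2 fold changes (x axis) of the 9 genes with 95% intervals of edgeR's quasi-likelihood fit in the genotype and diet comparisons. Filled points have an adjusted p under 0.05: *Mbl2*, *Masp2* and *Cfi* on chow and *Masp2* on HFS. No diet difference was filled, and the *Mbl2* points of the diet panels lie on opposite sides of 0.

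The HFS diet itself moved none of the 9 genes past the threshold. In *Xbp1* fl/fl hepatocytes edgeR called 0 of the 9 and 0.428% of all genes, and DESeq2 called 0 of the 9. An unadjusted p under 0.05 by edgeR was found for 1 of the 9, *Mbl2*, and for 1190 of all 13303 genes. *Mbl2* had -0.38 (SE 0.16, adjusted p = 0.512) there, and the median of the 9 was -0.13. *Cfb* was lower in every HFS-fed *Xbp1* fl/fl library (7.95, 9.06 and 9.45 CPM) than in every chow-fed one (13.6, 10.8 and 10.01 CPM). In *Xbp1* LKO hepatocytes edgeR called 0 of the 9 and 0.0601% of all genes, and DESeq2 called 0 of the 9. An unadjusted p under 0.05 by edgeR was found for 0 of the 9 and for 1683 of all 13303 genes. *Mbl2* had 0.38 (SE 0.18, adjusted p = 0.411), with every HFS-fed *Xbp1* LKO library above both chow-fed *Xbp1* LKO libraries, and the median of the 9 was -0.092. The shares of all genes that separate by diet in this way were not computed. The diet intervals of *Masp2* ran from -0.18 to 0.37 in *Xbp1* fl/fl and from -0.38 to 0.23 in *Xbp1* LKO hepatocytes, while those of *C3*, -0.80 to 0.46 and -1.06 to 0.34, left room for differences in either direction. Both diet comparisons share libraries with the genotype comparisons.

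Of 8 genes that start the classical pathway 6 were tested and 0 were called in either genotype comparison, with medians of -0.35 on chow and 0.33 on HFS. The HFS values of the C1q chains were 0.71 (SE 0.47, adjusted p = 0.502) for *C1qa*, 0.73 (SE 0.47, adjusted p = 0.487) for *C1qb* and 0.60 (SE 0.44, adjusted p = 0.560) for *C1qc*, genes that macrophages express, and the 10 macrophage markers had a median of 0.60 on HFS with 9 of 10 positive and 0 called. The part of macrophage RNA in these values was not tested. The C1r gene *C1ra* had -0.17 (SE 0.15, adjusted p = 0.583) and -0.18 (SE 0.13, adjusted p = 0.561). *C1s1*, the C1s protease, had -0.24 (SE 0.13, adjusted p = 0.360) and 0.058 (SE 0.12, adjusted p = 0.870). The *C4b* paralog *C4a* had 16.2, 30.5 and 60.05 CPM in chow-fed *Xbp1* fl/fl, 9.599 and 11.2 in chow-fed *Xbp1* LKO, 56.01, 61.8 and 40.3 in HFS-fed *Xbp1* fl/fl and 33.4, 16.8 and 8.43 in HFS-fed *Xbp1* LKO libraries. *Xbp1* LKO libraries were below *Xbp1* fl/fl libraries on each diet, yet the values -1.78 (SE 0.58, adjusted p = 0.111) and -1.43 (SE 0.48, adjusted p = 0.135) did not pass. Both were called by edgeR with no filter on low counts. The HFS value was also called without *Xbp1* LKO replicate 1 (-2.06, adjusted p = 0.0447). *C4b* had 13.9 to 112 times the counts of *C4a*.

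Of the 4 other lectin recognition genes 3 were tested, all at a few CPM, and *Colec10*, a collectin, fell in chow-fed *Xbp1* LKO hepatocytes with -2.53 (SE 0.58, adjusted p = 0.0312), a call lost without *Xbp1* LKO replicate 1 or 2 (adjusted p = 0.107 and 0.215). Without *Xbp1* fl/fl replicate 1 the value was -1.67 (adjusted p = 0.0312). With only the chow groups fitted, the *Colec10* call was lost (adjusted p = 0.149). It had 5.02, 1.21 and 1.69 CPM in *Xbp1* fl/fl and 0.427 and 0.481 in *Xbp1* LKO libraries on chow, and on HFS its difference was -0.30 (SE 0.42, adjusted p = 0.789). *Colec11* had -1.30 (SE 0.65, adjusted p = 0.302) and 0.16 (SE 0.51, adjusted p = 0.927). The stellate marker sum was also lower in chow-fed *Xbp1* LKO than chow-fed *Xbp1* fl/fl libraries (13.5 to 15.8 against 18.2 to 61.5 CPM), *Xbp1* fl/fl replicate 1 having both the highest sum and the highest *Colec10* level, and its part in the *Colec10* value was not tested. Both other alternative pathway genes, *Cfd* (factor D) and *Cfp* (properdin), were low and not called. *Cfd* had 0.36 (SE 1.93, adjusted p = 0.946) on chow and -1.26 (SE 1.09, adjusted p = 0.628) on HFS, and *Cfp* -0.28 (SE 0.34, adjusted p = 0.716) and 0.33 (SE 0.30, adjusted p = 0.659).

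Among 8 early regulators, 1 was called lower on chow and 0 on HFS. It was *Cfhr2*, with -0.78 (SE 0.18, adjusted p = 0.0311) on chow and -0.23 (SE 0.15, adjusted p = 0.501) on HFS. The *Cfhr2* call was lost without *Xbp1* fl/fl replicate 2 (adjusted p = 0.0606) or 3 (0.0600). Without *Xbp1* LKO replicate 2 the group has 1 library, so only the value, -0.63, is given and it does not bear on whether the call held. The call was also lost with library totals (-0.46, adjusted p = 0.0654), with a replicate block (0.0639) and with only the chow groups fitted (0.132). Of 7 complement receptors 3 were tested and 0 called. The receptor gene *C3ar1* had 0.49 (SE 0.66, adjusted p = 0.749) and 1.09 (SE 0.53, adjusted p = 0.327), and *C5ar2* -1.04 (SE 0.66, adjusted p = 0.429) and 0.48 (SE 0.51, adjusted p = 0.704).

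Of 7 genes of the terminal pathway, which lies downstream of C3, 6 were tested, and 3 fell on chow (*C9*, *Hc*, *C8a*) and 3 on HFS (*Hc*, *C8b*, *C8a*). *Hc*, the gene of C5, had 1673, 1828 and 1439.9 CPM in chow-fed *Xbp1* fl/fl and 258 and 347 CPM in chow-fed *Xbp1* LKO libraries, with log2 fold changes of -2.45 (SE 0.33, adjusted p = 0.00419) on chow and -2.43 (SE 0.28, adjusted p = 0.00226) on HFS. *C8a*, a chain of C8 in the membrane attack complex, had -1.10 (SE 0.23, adjusted p = 0.0220) and -1.04 (SE 0.20, adjusted p = 0.0169). Another chain gene of C8, *C8b*, had -0.39 (SE 0.24, adjusted p = 0.402) and -0.89 (SE 0.21, adjusted p = 0.0399). The pore-forming *C9* had -1.36 (SE 0.28, adjusted p = 0.0187) and -0.93 (SE 0.24, adjusted p = 0.0536). The *Hc* calls held without each library. Calls were lost for *C9* on chow without *Xbp1* LKO replicate 2 (adjusted p = 0.204), for *C8a* on chow without *Xbp1* fl/fl replicate 1 (0.0530) or *Xbp1* LKO replicate 1 (0.0935) or 2 (0.102), and on HFS without *Xbp1* LKO replicate 2 (0.0908) or 3 (0.0592). That of *C8b* on HFS was lost without *Xbp1* fl/fl replicate 1 (0.130) or 2 (0.130) or any *Xbp1* LKO library (0.0671, 0.169 and 0.0887). It was also lost with library totals (0.0705), with a replicate block (0.0700) and with only the HFS groups fitted (0.0548). With only the chow groups fitted, the *C8a* call on chow was lost (0.0584). By fitted value *Hc* fell further than each of the 9 early genes, a difference that was not tested.

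Of 14 liver transcription factors and cytokine signalling genes known to act on complement transcription, all were tested and 0 were called in either genotype comparison, with medians of 0.11 and -0.11. *Socs3*, an inhibitor of IL-6 signalling, had 1.72 (SE 0.64, adjusted p = 0.162) on chow and 0.58 (SE 0.58, adjusted p = 0.689) on HFS. The IL-6 receptor gene *Il6ra* had -0.012 (SE 0.26, adjusted p = 0.989) and -0.59 (SE 0.23, adjusted p = 0.211).

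By the mean centred profile of the 9 genes over 11 libraries, the 5 nearest other genes with at least 1 CPM were *Surf4*, *Trf*, *St6galnac6*, *Gorasp2* and *H2-D1*, at root mean square log2 differences of 0.0972, 0.104, 0.105, 0.106 and 0.106. *Surf4* encodes a cargo receptor for export from the endoplasmic reticulum and *Trf* encodes transferrin. The likeness is a description over libraries that share groups and scaling.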

How the data were processed

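Hepatocyte RNA of *Xbp1* fl/fl and *Xbp1* LKO mice was sequenced by the authors, and 11 libraries were analysed here. The study describes 3 libraries in each chow-fed group, of which 2 of the *Xbp1* LKO group were analysed here. The deposited values are raw counts, 1 whole number for each Ensembl gene. The study's methods name kallisto and tximport, while the submitters' processing notes list cutadapt 1.13, STAR, HTSeq 0.6.1p1, DESeq2 and the mm10 build. The zero counts of genes that share all exons are those of a gene-level counter that skips shared exons. Symbols and positions came from GENCODE M21 on GRCm38, which held 54079 of the 54232 identifiers. Groups followed the sample labels.

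Counts of 19191032 to 23888401 per library were normalized by TMM and CPM was computed. Genes with low counts were removed with edgeR's filterByExpr (minimum count 10), and edgeR 4.0.16 in R 4.3.3 fitted a quasi-likelihood model of 4 groups to all 11 libraries, with Benjamini-Hochberg adjustment over 13303 genes and a threshold of 0.05. Intervals are 95%. Standard errors were derived from the F statistic. Profiles were of log2 CPM (prior count 2). No 2 libraries of a group agreed within counting noise (chi-square per degree of freedom 27.9 to 101.6). Alternatives were DESeq2 1.42.0, RLE size factors, library totals, no filter, a filter at 1 CPM, a replicate block, only the groups compared, and each library left out in turn. The code was tested on simulated counts.

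The 9 genes and the other gene lists were chosen with earlier results of these data known. Named genes are the 9 genes, of each other list those past the threshold or the 2 with the smallest p, the 5 most alike genes, *Xbp1*, *Alb* and genes that could share their reads, apart from 1 gene that is not reported here. The C1q chains and *C1ra* were named after their values were seen. Named markers of other cells are reported as sums. One listed symbol for transferrin, Tf, was not matched and *Trf* was found by likeness only.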

Additional observations from a re-analysis of the deposited data

How the results depend on the processing

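The counts of called genes changed with the tool or setting, and with library totals the fitted values moved as well. On chow, 632 genes (3 of the 9) were called, with DESeq2 1130, with library totals in place of TMM 3000 (1 of the 9, *Cfi*), with no filter 1507, and with only the groups compared 233 (0 of the 9). On HFS, 543 genes (1 of the 9) were called, with DESeq2 1007 (4 of the 9, *C3*, *C4b*, *Cfi* and *Masp2*), with library totals 1483, with no filter 1438 (3 of the 9, *C3*, *C4b* and *Masp2*), and 2 of the 9 (*C4b* and *Masp2*) with only the groups compared. The diet comparison called 57 genes in *Xbp1* fl/fl hepatocytes, with DESeq2 181 and with no filter 499. In *Xbp1* LKO hepatocytes it called 8, with DESeq2 213, with no filter 722 and with only the groups compared 0. The difference between diets called 0, with DESeq2 29 and with no filter 269. The cause was not tested.

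Library totals shifted the median of all genes to 0.33 on chow and 0.27 on HFS, and the median of the 9 was -0.16 and -0.17. Calls then split 2685 higher and 315 lower on chow (230 and 402 with TMM) and 1288 higher and 195 lower on HFS (256 and 287). Relative to that shift *Masp2* was -0.60 and -0.78. Library totals turned the chow sign of *Mbl1* (0.16), *Masp1* (0.037), *Cfp* (0.030), *Il6ra* (0.32) and *C1s1* (0.089), the HFS sign of *Cfhr2* (0.018), the diet sign of *Masp1* in *Xbp1* LKO (-0.0057) and the interaction of *Cfb* (-0.075). No filter turned *Il6ra* on chow (0.013) and the *Cfb* interaction (-0.0098), and a 1 CPM filter the *C2* interaction (0.0048). None of these values was called. Outside the 9, some genes that the main fit did not call were called elsewhere. On chow these were *Socs3* with library totals (adjusted p = 0.0384), and *C4a* and *Socs3* with no filter. On HFS *C9* was called by DESeq2 (adjusted p = 0.00275), and *C4a*, *C9*, *Il6ra*, *Socs3* and *Cfd* with no filter. Without HFS-fed *Xbp1* LKO replicate 1, *C4a*, *C9* (adjusted p = 0.0326) and *Il6ra* (0.00855) were called on HFS.

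The deviations of same-numbered libraries from their group means had correlations of -0.199 to 0.231. With so few libraries in a group these deviations are not independent, so they cannot decide whether the numbers pair samples. A replicate block gave 1 of the 9 on chow (*Cfi*), 19 diet calls in *Xbp1* LKO, and turned the *C2* (0.091) and *Masp1* (6.6e-07) interactions.

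Leaving out each library in turn gave 69 to 762 called genes on chow (69 without *Xbp1* LKO replicate 2, 0 to 2 of the 9), 184 to 532 on HFS (184 without *Xbp1* LKO replicate 2), 6 to 43 for diet in *Xbp1* fl/fl (6 without HFS replicate 3) and 0 to 36 in *Xbp1* LKO (0 without HFS replicate 1, 36 without chow replicate 1). It turned the sign of uncalled values, with ranges on chow for *Cfp* (-0.54 to 0.035), *Il6ra* (-0.085 to 0.055), *C3ar1* (-0.62 to 1.11) and *Cfd* (-0.0077 to 1.65), on HFS for *Mbl2* (-0.095 to 0.12), *Colec11* (-0.21 to 0.57), *Socs3* (-0.028 to 1.56) and *Cfd* (-2.86 to 0.77), for diet in *Xbp1* fl/fl for *C2* (-0.26 to 0.0020), *C3* (-0.44 to 0.091), *C4b* (-0.062 to 0.45), *Mbl1* (-0.085 to 0.078), *Masp1* (-0.047 to 0.22) and *Masp2* (-9.5e-04 to 0.16), for diet in *Xbp1* LKO for *C4b* (-0.53 to 0.16), *Cfb* (-0.69 to 0.040), *Mbl1* (-0.27 to 0.12), *Masp1* (-0.11 to 0.22) and *Masp2* (-0.21 to 0.084), and for the interaction of *C2* (-0.14 to 0.13), *C3* (-0.45 to 0.076), *Cfb* (-0.31 to 0.41), *Mbl1* (-0.28 to 0.11) and *Masp1* (-0.23 to 0.096). The chow-fed *Xbp1* LKO group has 2 libraries, so leaving 1 out gives a group of 1.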
